A study of Mus musculus with 18 samples.

Results

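The AP-1 family of transcription factors was followed in splenic B cells before and after culture with lipopolysaccharide (LPS), an outer membrane molecule of bacteria to which B cells respond through TLR4. The 10 members were the rows of the deposited expression table for *Fos*, *Fosb*, *Fosl1*, *Fosl2*, *Jun*, *Junb*, *Jund*, *Atf3*, *Batf* and *Maff*, matched by NCBI gene ID, of 16545 genes in all. The study asked what *Zbtb24*, a zinc finger gene mutated in ICF immunodeficiency, does in B cells. Its 18 libraries came from 3 control (CON) and 3 *Zbtb24* B-CKO mice. Each mouse gave a library at 0 h (labelled D0, before LPS), at 24 h (D1) and at 48 h (D2). No library came from cells cultured without LPS, so LPS and the time in culture since isolation cannot be told apart. Per the study's methods, B-CKO mice are homozygous for a *Zbtb24* allele whose exon with the translation start is floxed. The controls are littermates with unfloxed *Zbtb24*, on a C57BL/6 background. Both genotypes are described as carrying the same Cre allele, which is active in B cells. The cells were total splenic B cells, enriched magnetically and sorted, so that follicular and marginal zone cells are mixed in each library. The LPS dose and the age of these mice were not given in the sources used here.

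AP-1 is a dimer. Proteins of the Fos group (FOS, FOSB, FOSL1, FOSL2) pair with those of the Jun group (JUN, JUNB, JUND) through a leucine zipper and bind a short palindromic site, while Jun proteins can also pair with each other or with ATF3 or BATF. *Fos*, *Fosb*, *Jun*, *Junb* and *Atf3* are immediate early genes: MAP kinases and serum response factor switch on their transcription within minutes of a stimulus, and their mRNA decays fast. BATF lacks a transactivation domain of its own and works with JUN proteins and IRF4 or IRF8, and B cells need it for class switching. MAFF, a small Maf protein, lacks such a domain as well.

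Values are FPKM, fragment numbers divided by transcript length and library size, so that levels can be compared between genes. Fragment counts were not given, but for 152 of 217 low genes the values were whole multiples of a step. Relative depth from these steps, with the geometric mean over libraries set to 1, was 0.879 to 0.923 at 0 h and 1.01 to 1.07 after LPS. *Zbtb24* itself averaged 45.4 FPKM in control mice before LPS against 12.5 in B-CKO mice. The means were 17.6 against 10.9 FPKM on D1 and 15.2 against 10.4 on D2, and the mice of the genotypes did not overlap at any time, though the test called none of the differences (adjusted p = 0.12, 0.0586 and 0.267). The 10 B cell markers summed to 4653 to 6208 FPKM at 0 h, while 9 T cell markers summed to 24.6 to 37.3, 8 myeloid markers to 3.99 to 10.01, 6 erythroid markers to 11.7 to 71.1 and 5 NK cell markers to 3.25 to 4.75. At 0 h the libraries of replicate number 1 of both genotypes stood apart for several members. For *Fosl2*, *Atf3* and *Maff* the difference from 0 h to 24 h is given with and without number 1. Tests are limma on log2(FPKM + 1) with Benjamini-Hochberg adjustment over all genes tested, and a member is called at an adjusted p under 0.05. The p-values of the main group tests rest on the spread between the 3 mice of a group, with libraries of a mouse at different times taken as independent. Tests with the replicate number in the model rest on the spread left after it. In RNA from a cell population, fewer cells with a transcript and less transcript per cell cannot be told apart.

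The 250 bases before the transcript start are given here for *Fos*, *Fosb* and *Jun*, whose mRNA was lower after LPS, and for *Batf*, whose mRNA was higher. The sequences are from RefSeq (GRCm38.p6), 5′ to 3′ on the gene's strand, and capitals mark matches on either strand to TGACG or TGACNTCA, the core and a full form of the site of CREB, ATF and Jun proteins.
Fos, chr12:85473640-85473889, plus strand: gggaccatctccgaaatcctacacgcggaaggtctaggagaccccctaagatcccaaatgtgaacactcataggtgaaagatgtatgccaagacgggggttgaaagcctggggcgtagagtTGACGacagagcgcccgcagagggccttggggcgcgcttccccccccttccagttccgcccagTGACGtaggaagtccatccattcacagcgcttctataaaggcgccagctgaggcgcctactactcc
Fosb, chr7:19310046-19310295, minus strand: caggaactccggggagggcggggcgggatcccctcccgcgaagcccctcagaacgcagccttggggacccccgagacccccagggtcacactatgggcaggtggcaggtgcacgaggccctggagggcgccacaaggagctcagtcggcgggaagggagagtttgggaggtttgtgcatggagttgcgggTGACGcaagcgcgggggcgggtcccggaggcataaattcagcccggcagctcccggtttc
Jun, chr4:95052223-95052472, minus strand: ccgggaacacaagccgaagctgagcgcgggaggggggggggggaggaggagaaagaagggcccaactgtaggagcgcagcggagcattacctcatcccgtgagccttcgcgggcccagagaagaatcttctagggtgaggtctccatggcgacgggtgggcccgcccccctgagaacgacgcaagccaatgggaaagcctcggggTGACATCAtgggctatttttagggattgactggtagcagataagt
Batf, chr12:85686470-85686719, plus strand: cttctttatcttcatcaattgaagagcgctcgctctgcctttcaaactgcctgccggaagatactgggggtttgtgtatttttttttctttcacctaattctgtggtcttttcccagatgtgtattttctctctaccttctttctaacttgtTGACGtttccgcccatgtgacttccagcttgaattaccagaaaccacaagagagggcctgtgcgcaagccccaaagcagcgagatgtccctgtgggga

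*Fos* held TGACG at positions -129 to -125 and -66 to -62, counted back from the start, *Fosb* at -60 to -56 and *Batf* at -98 to -94, while *Jun* held TGACATCA at -45 to -38. RefSeq windows were matched for 9 of the 10 members, all except *Fosl1*, and there were 11 windows because *Maff* has several starts. For *Junb* and *Jund*, the bases just after the start were not found in a transcript of the gene in the GENCODE annotation. Their windows are kept in the counts. TGACG was found in 7 of the 11 windows, of *Fos*, *Fosb*, *Junb*, *Atf3*, *Batf* and *Maff*, and in 17.8% of all 32851 windows of the same length. TGACNTCA, part of whose matches also hold TGACG, was found in 3 of the 11, of *Jun* and *Maff*, and in 7.49% of all. The AP-1 site TGANTCA was in 0 of the 11 and in 6.75% of all, and the CArG box, the site of serum response factor, was in 0 of the 11 and in 1.47% of all. A match is a run of letters, and its absence says only that this window does not hold it.

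Before LPS, most of the family was abundant. Averaged over the 6 mice at 0 h, *Junb* stood at 955 ± 155 FPKM (SD, n = 6), *Jund* at 874 ± 198, *Fosb* at 459 ± 230, *Fos* at 393 ± 40.9 and *Jun* at 259.9 ± 35.1. *Atf3* followed with 83.98 ± 46.6, *Maff* with 41.0 ± 24.4, *Fosl2* with 11.2 ± 8.62 and *Batf* with 11.04 ± 1.93, while *Fosl1* was near the floor at 0.163 ± 0.088. Neighbours in this order overlapped between mice, except *Fos* and *Jun* (at least 344 and at most 309), *Jun* and *Atf3* (at least 208 and at most 127) and *Batf* and *Fosl1*. The 10 members summed to 2540 to 3943 FPKM per library. Jun genes made up 68.1% of that sum on average, with *Junb* alone at 31.3% and *Jund* at 28.2%, Fos genes 27.6%, and *Batf* 0.375%.

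After 24 h of LPS the family was smaller and made up differently. Its sum was 436 to 469 FPKM at 24 h and 484 to 560.4 at 48 h. Fos genes took 0.365% of it at 24 h and 0.388% at 48 h, while *Batf* took 42.0% (38.7% to 45.4% among the 6 mice) and then 28.5%. Jun genes kept the largest share with 53.2% and 64.0%, and within them *Jund* (35.9% of the family) lay above *Junb* (14.2%) at 24 h. That order held in all 6 mice at 24 h, while at 0 h *Jund* was above *Junb* in 2 of 6 (control number 3, 906.5 against 688 FPKM, and B-CKO number 2, 1036 against 1011). These shares compare mRNA levels, with no test, and say nothing of protein.

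**Figure D1:**
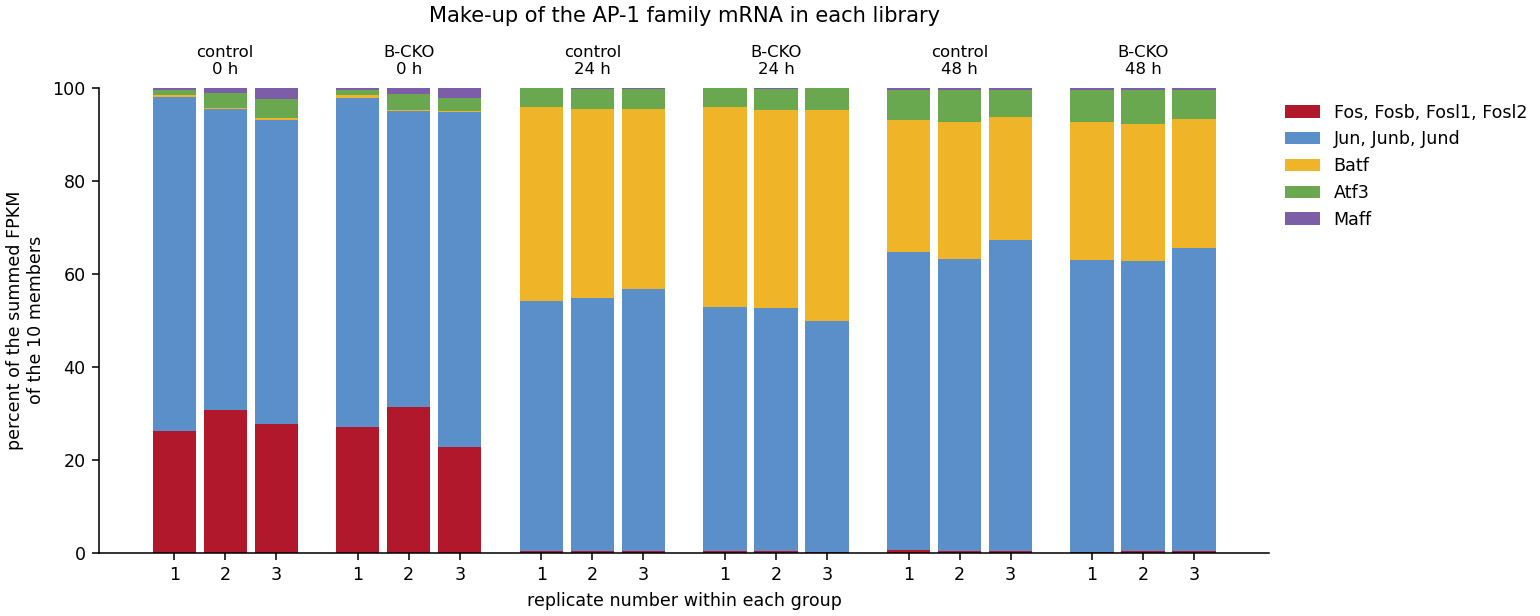
Share of the summed FPKM of the 10 members (y axis, percent) taken by Fos genes, Jun genes, Batf, Atf3 and Maff in each of the 18 libraries, grouped by genotype and hours of LPS. The Fos share is 22.7% to 31.3% in the 6 libraries at 0 h and under 1% later, and Batf fills 38.7% to 45.4% at 24 h.

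In control cells, 8 members fell from 0 h to 24 h and *Batf* rose. The 9 calls of 10 members stand beside 57.4% of all 15531 genes tested, and the 8 lower calls beside 30.7%. The members' median difference was -3.22 on the log2(FPKM + 1) scale, against -0.0216 over all genes. B-CKO cells gave the same 9 calls with the same signs, where 59.8% of all genes were called. In each genotype the 3 mice at 24 h lay apart from the 3 at 0 h for 9 members, beside 63.9% (control) and 65.5% (B-CKO) of all genes. At 24 h, summed B cell markers were also lower, at 2232 to 2758 FPKM, as were T cell markers at 10.2 to 15.4 and NK cell markers at 0.14 to 0.40. The sum of 6 plasma cell markers was lower as well, at 135 to 154, from 242.5 to 421 at 0 h. Of these 6, 2 rose and 3 fell in control, and 2 rose and 4 fell in B-CKO. Erythroid markers summed to 7.51 to 12.7 FPKM, with 4 lower and 1 higher of 5 tested in control and 3 lower of 6 in B-CKO. Myeloid markers summed to 3.17 to 5.13, with 2 lower and 1 higher of 8 in control and 3 and 1 in B-CKO. The sum of 8 heat shock genes was higher, at 4122 to 4717 FPKM against 901 to 2001 at 0 h (5 rose and 3 fell in control, and 4 and 3 in B-CKO). The part of these lists in the members' change was not tested.

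**Figure D2:**
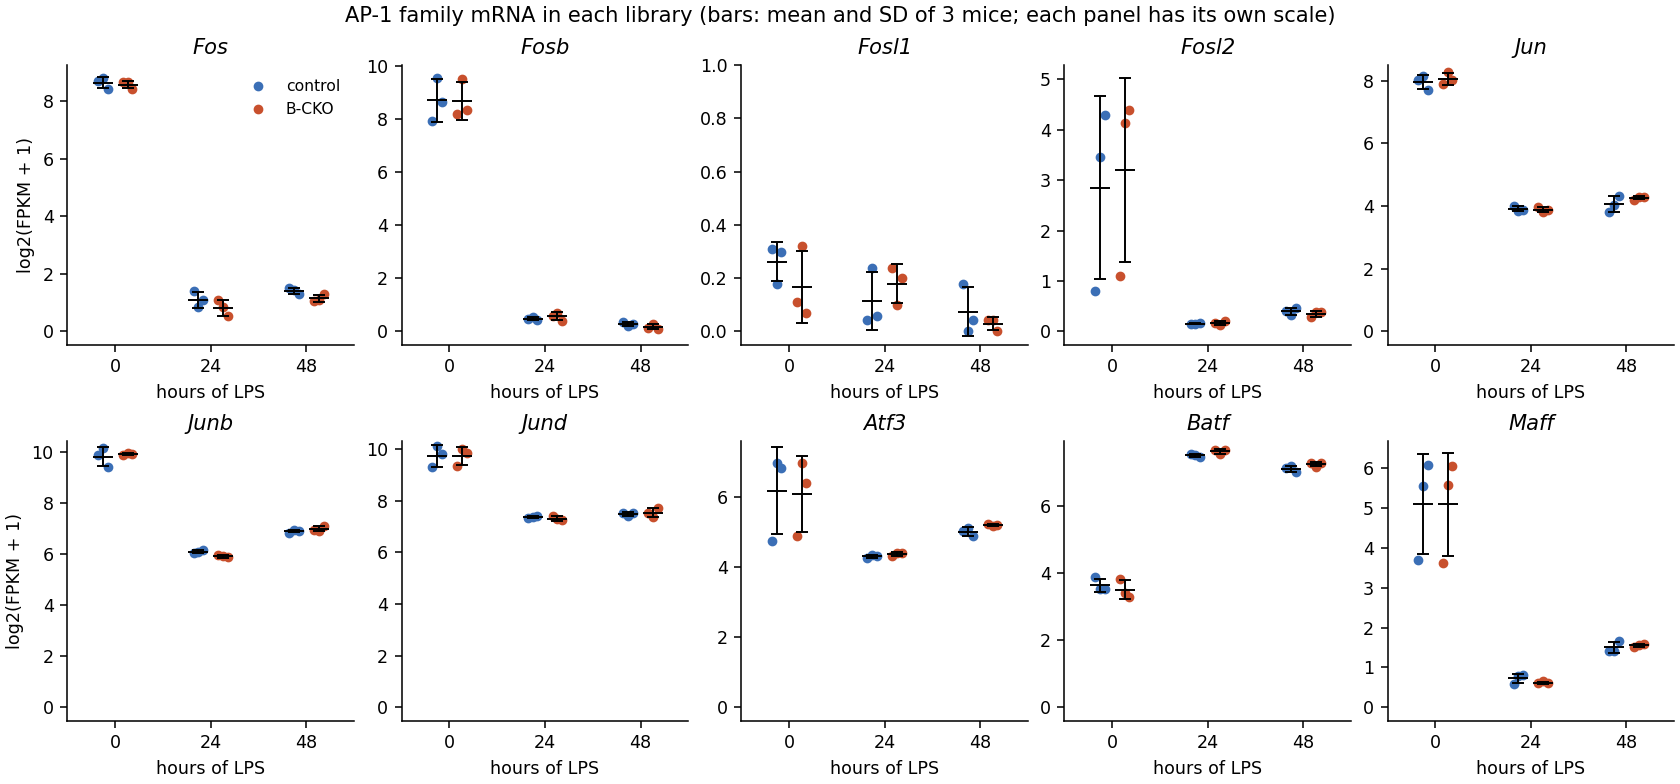
log2(FPKM + 1) of each member in each library against hours of LPS, with control mice in blue, B-CKO mice in orange-red, and the mean and SD of 3 mice in black. After 0 h the panels other than Batf and Fosl1 drop, Batf climbs, and Fosl1 stays near the floor. The 0 h points of Fosl2, Atf3, Maff and Fosb are the most spread.

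*Fos* encodes the founding Fos protein. It measured 420.4, 444 and 344 FPKM in the 3 control mice at 0 h, and 1.63, 0.78 and 1.11 at 24 h. In B-CKO mice the values were 402, 403 and 344, and then 1.13, 0.79 and 0.43. The times did not overlap, the mean was 343-fold lower at 24 h in control and 489-fold lower in B-CKO, and the log2 difference was -7.55 ± 0.17 (SE, adjusted p = 4.97e-06) and -7.77 ± 0.15 (adjusted p = 2.24e-06). On D2 *Fos* stood at 1.81, 1.69 and 1.44 FPKM in control and at 1.07, 1.15 and 1.45 in B-CKO. Against 24 h this was 0.30 and 0.33 higher (log2) and not called (adjusted p = 0.136 and 0.109). Without the 24 h library of number 1 it was called in each genotype, at 0.45 (adjusted p = 0.0221) in control and 0.47 (adjusted p = 0.0319) in B-CKO.

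*Fosb*, whose product also exists in a short form lacking the transactivation domain, varied more at 0 h than *Junb*, *Jund*, *Fos* and *Jun*. Its values were 243, 759 and 397 FPKM in control and 294, 739 and 323 in B-CKO. On D1 it was at 0.39, 0.44 and 0.36 FPKM in control and 0.50, 0.62 and 0.32 in B-CKO. The times did not overlap, and the log2 difference was -8.23 ± 0.39 in control (adjusted p = 1.41e-05) and -8.13 ± 0.35 in B-CKO (adjusted p = 6.78e-06). It fell again by 48 h, to 0.28, 0.16 and 0.21 in control and 0.10, 0.22 and 0.07 in B-CKO (log2 difference from 24 h -0.20, adjusted p = 0.00867, and -0.39, adjusted p = 0.00796). *Fosb* and *Batf* were the members called lower at 48 h than at 24 h in both genotypes.

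*Fosl2*, which encodes FRA-2, was at 0.75, 9.99 and 18.6 FPKM in control mice 1, 2 and 3 at 0 h, and at 1.15, 16.6 and 19.9 in B-CKO mice. After 24 h it lay between 0.09 and 0.16 FPKM in all 6 mice. Number 1 was far below the other numbers at 0 h but still above every 24 h value. The log2 difference was -2.70 ± 0.85 in control (adjusted p = 0.0335) and -3.04 ± 0.85 in B-CKO (adjusted p = 0.0199). Without number 1 at both times it was -3.73 (adjusted p = 0.00282) and -4.09 (adjusted p = 0.000441). Leaving out any single library other than the 0 h library of number 1 ended the call in both genotypes, with an adjusted p of up to 0.112 in control and 0.0743 in B-CKO. It then rose to 0.21 to 0.37 FPKM at 48 h (log2 difference 0.25 in control, adjusted p = 0.00176, and 0.18 in B-CKO, adjusted p = 0.00868).

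*Fosl1*, which encodes FRA-1, ranged from 0 to 0.25 FPKM over the 18 libraries. It was not called from 0 h to 24 h (adjusted p = 0.0917 in control and 0.902 in B-CKO). Its calls elsewhere were small on this scale: a log2 difference of -0.19 from 0 h to 48 h in control (adjusted p = 0.0289), where the groups touched and leaving out the 0 h library of number 1 or 3 or the 48 h library of number 2 or 3 ended the call (adjusted p up to 0.0957), and -0.15 from 24 h to 48 h in B-CKO (adjusted p = 0.0151), where leaving out number 3 at either time did so (adjusted p up to 0.0566).

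*Jun* encodes c-JUN, the main partner of FOS. Its values at 0 h were 260.1, 285 and 208 FPKM in control and 239, 309 and 259 in B-CKO. At 24 h they were 15.01, 13.3 and 13.8 in control and 14.8, 12.9 and 13.8 in B-CKO. The times did not overlap, and *Jun* was 17.9-fold lower in control (log2 difference -4.06 ± 0.12, adjusted p = 5.88e-06) and 19.4-fold lower in B-CKO (-4.18 ± 0.10, adjusted p = 2.37e-06). At 48 h *Jun* was at 13.03, 15.3 and 19.1 FPKM in control, which overlapped 24 h (log2 difference 0.15, adjusted p = 0.407). In B-CKO it was at 17.4, 18.4 and 18.7, above every 24 h value (0.37, adjusted p = 0.00209). This change was not shown to differ between the genotypes (interaction 0.22, adjusted p = 0.806).

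*Junb*, which encodes a weaker transactivator that can hold c-JUN in check, had the highest mean at 0 h, with 940.1, 1165 and 688 FPKM in control and 942, 1011 and 984 in B-CKO. A day later it was at 64.8, 68.0 and 70.3 in control and 62.6, 59.5 and 58.1 in B-CKO. The mean was 13.8-fold lower in control (log2 difference -3.73 ± 0.18, adjusted p = 1.67e-05) and 16.3-fold lower in B-CKO (-4.00 ± 0.05, adjusted p = 2.24e-06). By 48 h it had risen to 115, 124 and 121 FPKM in control and 125, 121 and 137 in B-CKO. The rise was 1.77-fold in control (0.81, adjusted p = 3.92e-05) and 2.12-fold in B-CKO (1.07, adjusted p = 2.16e-05), and all 48 h values stayed below all 0 h values.

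*Jund*, the Jun gene known for steady expression in resting cells, kept the highest level of the Jun group after LPS. It was at 624, 1098 and 906 FPKM in control and 644, 1037 and 932 in B-CKO at 0 h. Under LPS at 24 h it was at 161, 164 and 169 in control and 168, 156 and 150.4 in B-CKO. This was 5.32-fold lower in control (log2 difference -2.37 ± 0.20, adjusted p = 0.000126) and 5.51-fold lower in B-CKO (-2.43 ± 0.18, adjusted p = 5e-05), the smallest fold among the 3 Jun genes. At 48 h it was at 165 to 209 FPKM over the 6 mice, not called against 24 h (0.11, adjusted p = 0.0751, in control and 0.22, adjusted p = 0.0847, in B-CKO). Without the 48 h library of number 2, the lowest of its group, it was called in control (adjusted p = 0.0168) and in B-CKO (adjusted p = 0.0227). It was also called in control under median ratio scaling (0.17, adjusted p = 0.0238) and in B-CKO among genes averaging at least 1 FPKM (0.22, adjusted p = 0.0273).

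*Atf3*, a stress-induced gene whose product represses as a homodimer, was at 26.0, 127 and 113 FPKM in control mice 1, 2 and 3 at 0 h and at 28.8, 126 and 83.4 in B-CKO mice. At 24 h it lay between 18.2 and 20.3 FPKM in all mice. Number 1 at 0 h was close to the 24 h level, and numbers 2 and 3 were well above it. The log2 difference was -1.88 ± 0.58 in control (adjusted p = 0.0324) and -1.71 ± 0.50 in B-CKO (adjusted p = 0.0238). Without number 1 it was -2.57 (adjusted p = 0.000988) and -2.29 (adjusted p = 0.00265). Leaving out any single library but the 0 h library of number 1 ended the call, with an adjusted p of up to 0.105 and 0.0802. From 24 h to 48 h *Atf3* rose to 32.1, 34.2 and 28.6 FPKM in control (0.71, adjusted p = 0.000275) and 36.5, 35.4 and 36.0 in B-CKO (0.83, adjusted p = 1.51e-05). Against 0 h the 48 h level was not called (adjusted p = 0.132 and 0.171), and it lay above number 1 and below numbers 2 and 3 of its genotype. Without number 1 it was called lower, at -1.90 in control (adjusted p = 0.00158) and -1.50 in B-CKO (adjusted p = 0.00772).

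*Maff* was at 11.8, 45.6 and 65.7 FPKM in control mice 1, 2 and 3 at 0 h and at 11.3, 46.7 and 65.1 in B-CKO mice, so that same-numbered mice of both genotypes lay close together. At 24 h it was at 0.51, 0.72 and 0.75 in control and 0.52, 0.57 and 0.53 in B-CKO. The times did not overlap (log2 difference -4.37 ± 0.59, adjusted p = 0.000971, and -4.46 ± 0.60, adjusted p = 0.000801). Without number 1 it was -5.01 (adjusted p = 0.00104) and -5.18 (adjusted p = 0.000493). At 48 h *Maff* was at 1.68, 1.68 and 2.16 FPKM in control and 1.87, 1.96 and 2.00 in B-CKO, 2.79-fold and 3.60-fold above 24 h (0.77, adjusted p = 0.000654, and 0.93, adjusted p = 2.22e-05).

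*Batf* was the member that rose. It was at 13.6, 10.5 and 10.5 FPKM in control and 13.2, 9.63 and 8.84 in B-CKO at 0 h. At 24 h it reached 186, 184 and 174 in control and 202, 185 and 203 in B-CKO, 15.7-fold and 18.6-fold higher (log2 difference 3.87 ± 0.11, adjusted p = 5.17e-06, and 4.11 ± 0.14, adjusted p = 3.78e-06). The times did not overlap. At 48 h it was lower again, at 138, 145 and 128 FPKM in control and 153, 143 and 155 in B-CKO (-0.40, adjusted p = 0.00099, and -0.38, adjusted p = 0.00097). At 24 h *Batf* was the most abundant member, above every *Jund* value, and at 48 h it lay below every *Jund* value.

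From 24 h to 48 h the pattern was mixed. In control, 6 of 10 members were called, with *Fosl2*, *Junb*, *Atf3* and *Maff* higher and *Fosb* and *Batf* lower, beside 44.9% of all genes (20.1% higher, 24.8% lower). In B-CKO, 8 of 10 were called, the same 6 with *Jun* higher and *Fosl1* lower, beside 45.7% of all genes (21.7% higher, 24% lower). By the study's own rule, a fold cutoff with an unadjusted p, 3 members were called in each genotype, beside 17.4% of all genes in control and 20.8% in B-CKO. Over the whole course, 9 of 10 members differed between 48 h and 0 h in control (56.8% of all genes) and 8 of 10 in B-CKO (57.6%), all called members lower except *Batf*. In control 30.3% of all genes were lower and 26.5% higher, and in B-CKO 30.7% and 27%. The *Fosl2* call (-2.46, adjusted p = 0.0436, in control and -2.86, adjusted p = 0.0238, in B-CKO) was lost on leaving out any library but the 0 h library of number 1, with an adjusted p of up to 0.135 and 0.0844. From 24 h to 48 h, summed plasma cell markers were higher, at 194 to 316 FPKM. Of 6, 5 rose in control, and 3 rose and 1 fell in B-CKO. Summed heat shock genes were lower, at 2590 to 2900 FPKM (1 rose and 5 fell of 8 in control, and 0 and 5 in B-CKO). Against 0 h, the 48 h sums of B cell (2628 to 2913 FPKM), T cell (9.34 to 13.8) and NK cell markers (0 to 0.26) were lower. Their part in the members' changes was not tested.

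**Figure D3:**
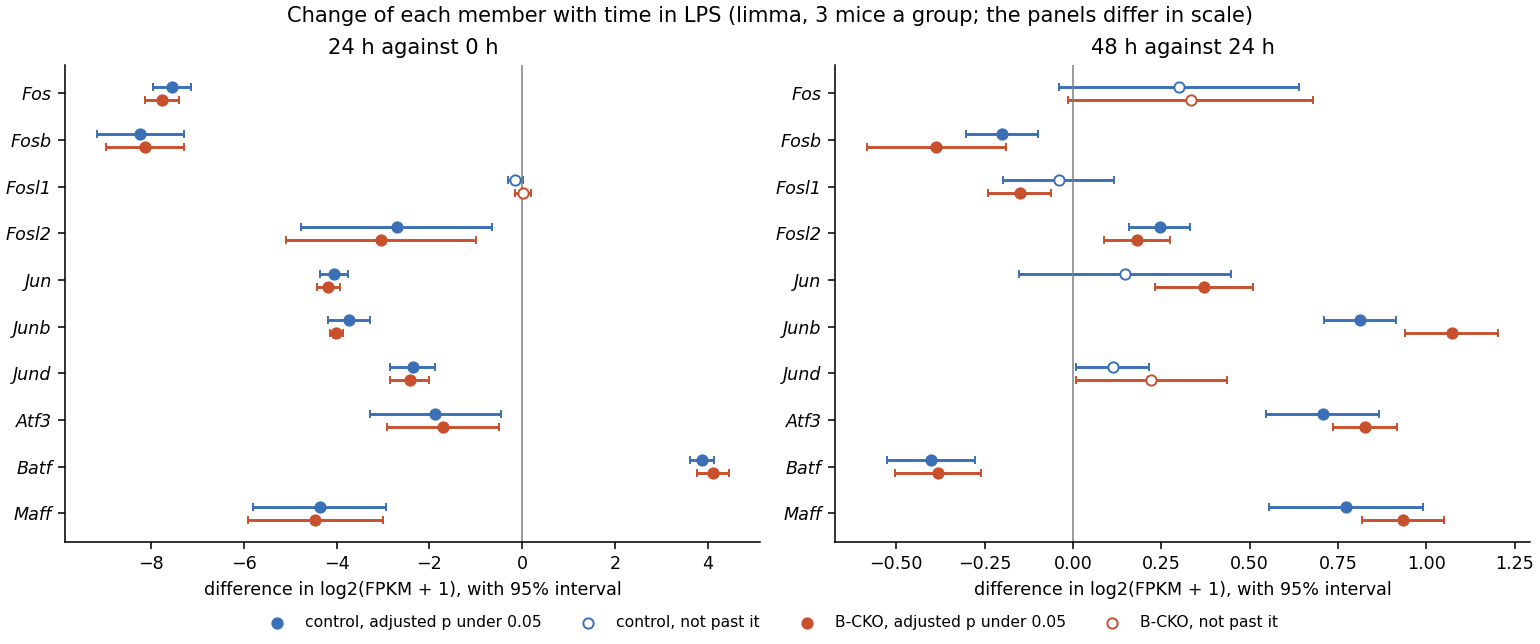
Difference in log2(FPKM + 1) of each member from 0 h to 24 h (left) and from 24 h to 48 h (right) in control (blue) and B-CKO (orange-red), with 95% intervals. Filled points passed an adjusted p under 0.05. On the left, Fos and Fosb lie farthest to the left, Fosl2, Atf3 and Maff have the widest intervals, and Batf lies to the right of the line. On the right, Junb, Atf3 and Maff lie farthest right.

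No member was called between the genotypes at any time. At 0 h, 0 of 10 members were called, as was 0% of all genes, and 0 members had an unadjusted p under 0.05 (2% of all genes). The genotypes overlapped for all 10 members, while 3.87% of all genes did not overlap. Log2 differences of B-CKO minus control ranged from -0.13 for *Batf* to 0.36 for *Fosl2*. The intervals at 0 h were wide where the numbers differed, from -2.52 to 3.23 for *Fosl2* and from -0.37 to 0.24 for *Fos*. With the replicate number as a block they were narrower, from -0.43 to 0.23 for *Atf3*, from -0.13 to 0.10 for *Maff* and from -0.0017 to 0.71 for *Fosl2*. The labels do not pair the genotypes by number, and this pairing was taken from the same 0 h values. *Fosl2* was higher in the B-CKO mouse of all 3 pairs, as were 10.2% of all genes, and not called in the blocked fit (0.36, adjusted p = 0.867, and 0.505 with the 1 FPKM filter as well). *Fos* and *Batf* were lower in the B-CKO mouse of all 3 pairs, as were 11.4% of all genes, and not called either (-0.07, adjusted p = 0.918, and -0.13, adjusted p = 0.887).

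At 24 h, 0 of 10 were called (0.0993% of all genes), and 2 members had an unadjusted p under 0.05, beside 16.3% of all genes. *Junb* was one of them: its 3 B-CKO values, 58.1 to 62.6 FPKM, lay below its 3 control values, 64.8 to 70.3. The log2 difference was -0.17 (interval -0.27 to -0.07, adjusted p = 0.132, and 0.0533 to 0.311 over the counted alternatives). Of all genes, 20.1% did not overlap at 24 h, 11.7% in this direction. At 24 h the sum of the 26 other immediate early genes was also lower in B-CKO without overlap, at 712.5 to 754 FPKM against 779 to 813 in control (median log2 difference -0.12, 1 of 26 called). The summed T cell markers were lower too, at 10.2 to 11.9 against 12.8 to 15.4, through *Lck* (8.24 to 9.31 against 11.2 to 13.3), while the 8 others summed to 1.91 to 2.72 against 1.60 to 2.02. Summed heat shock genes were higher in B-CKO without overlap, at 4411 to 4717 against 4122 to 4320. The part of these in the difference was not tested. *Batf* was 0.12 higher with overlapping mice (adjusted p = 0.266). At 48 h, 0 of 10 were called (0.046% of all genes) and 3 had an unadjusted p under 0.05, beside 7.71% of all genes. *Atf3* was higher in all 3 B-CKO mice, at 35.4 to 36.5 FPKM against 28.6 to 34.2. Its log2 difference was 0.18 (interval 0.03 to 0.34, adjusted p = 0.55, and 0.437 to 0.906 over the counted alternatives). Of all genes, 11.1% did not overlap at 48 h, 4.89% in this direction. At 48 h summed T cell markers (9.34 to 10.99 FPKM against 13.4 to 13.8) and myeloid markers (3.52 to 4.95 against 5.33 to 6.89) were lower in B-CKO without overlap, and erythroid markers higher (11.6 to 16.3 against 9.67 to 9.93), mostly through *Lck*, *Itgam* and *Hbb-bt*. No gene of these lists was called, and their part in the difference was not tested. *Fos* (-0.25) and *Batf* (0.14) overlapped between genotypes. By the study's own rule 0 of 10 members were called at each time, beside 0.339%, 0.444% and 0.585% of all genes.

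The change with time was not called as different between genotypes for any member in an interaction test, with 0 of 10 called from 0 h to 24 h and 0 of 10 from 24 h to 48 h (0% of all genes in each). From 0 h to 24 h, 0 members had an unadjusted p under 0.05, beside 2.89% of all genes, and from 24 h to 48 h 1 did, beside 7.31%: *Junb*, whose rise was 0.26 larger in B-CKO (interval 0.10 to 0.42, adjusted p = 0.549). This comparison uses the 24 h libraries, in which *Junb* was lower in B-CKO.

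**Figure D4:**
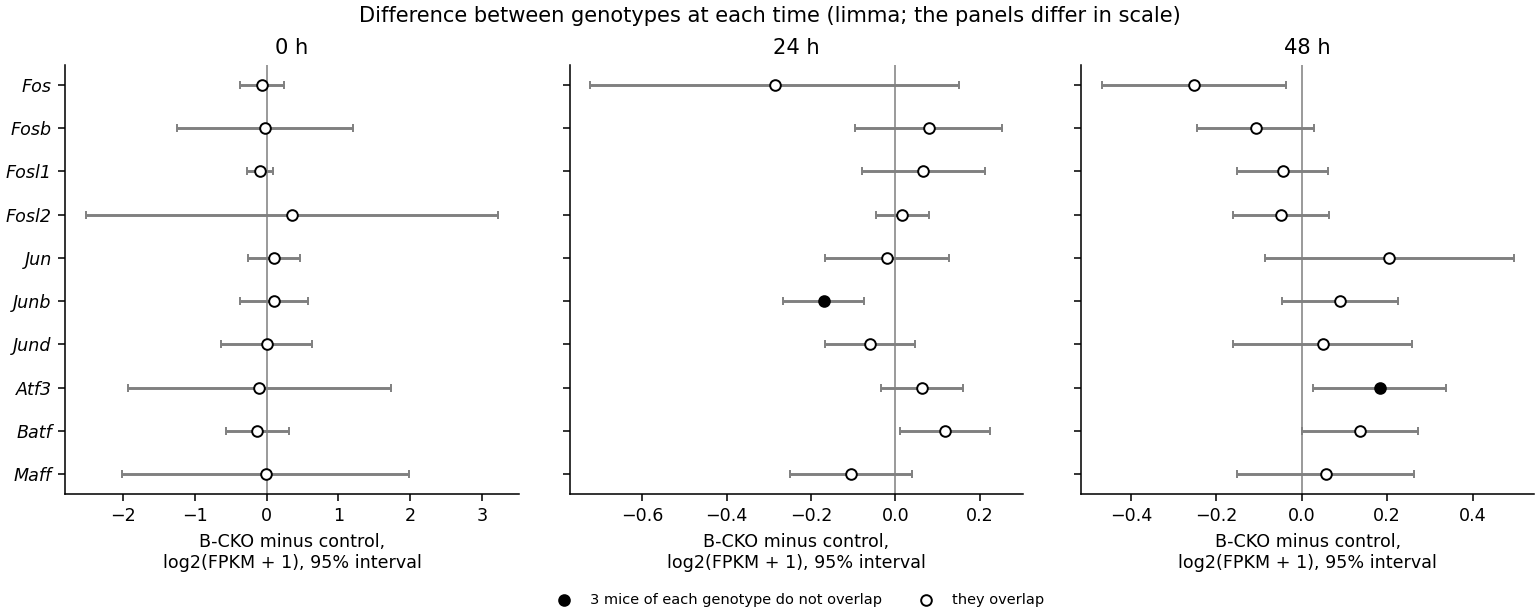
B-CKO minus control difference in log2(FPKM + 1) of each member at 0 h, 24 h and 48 h, with 95% intervals, each panel on its own x scale. Filled points, Junb at 24 h and Atf3 at 48 h, are those whose 3 mice of each genotype do not overlap. The 0 h intervals of Fosb, Fosl2, Atf3 and Maff are far wider than their later ones, while that of Fos is widest at 24 h.

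The spread between mice at 0 h was larger than later and larger for AP-1 members than for most genes. The median SD of log2(FPKM + 1) over genes averaging 1 FPKM or more was 0.171 (control) and 0.159 (B-CKO mice) before LPS, against 0.0556 and 0.0537 at 24 h. Of the 9 members at that level at 0 h, 9 in control and 7 in B-CKO lay above these medians, where 50% of genes do, with a median SD of 0.415 and 0.359. The highest library exceeded the lowest 26.6-fold for *Fosl2*, 5.82-fold for *Maff*, 4.88-fold for *Atf3* and 3.12-fold for *Fosb*. For *Fos* the ratio was 1.29, for *Jun* 1.48 and for *Junb* 1.69.

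For several members this spread went with the replicate number that control and B-CKO mice share. Deviations from the group mean correlated at 0.86, 0.47 and 0.79 between same-numbered mice at 0 h, across 9979 genes, which share a library and are not independent. In a test of the number with genotype in the model, 5 of 10 members were called at 0 h, *Maff* (adjusted p = 0.00367), *Fosl2* (0.0108), *Atf3* (0.0212), *Fosb* (0.0317) and *Jund* (0.0335), beside 9.01% of all genes, and 7 had an unadjusted p under 0.05, beside 33.7%. For all 5, number 1 was lowest in both genotypes. Number 2 was highest for *Fosb*, *Jund* and *Atf3*, and number 3 for *Fosl2* and *Maff*. *Batf* ran the other way, highest in number 1 (adjusted p = 0.0624), and *Fos* was lowest in number 3 (adjusted p = 0.0841). Among genes averaging at least 1 FPKM, *Batf* (adjusted p = 0.00998), *Fos* (0.0242) and *Jun* (0.0479) were called as well, which made 8 members beside 41.2% of those genes. Leaving out any 1 of the 6 libraries left 0 of 10 called (adjusted p 0.16 to 0.346 for these members), with 1 number then resting on a single mouse. At 24 h and 48 h, 0 of 10 members were called by number (0% of all genes), with 1 and 0 members at an unadjusted p under 0.05 beside 7.33% and 8.47% of all genes.

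**Figure D5:**
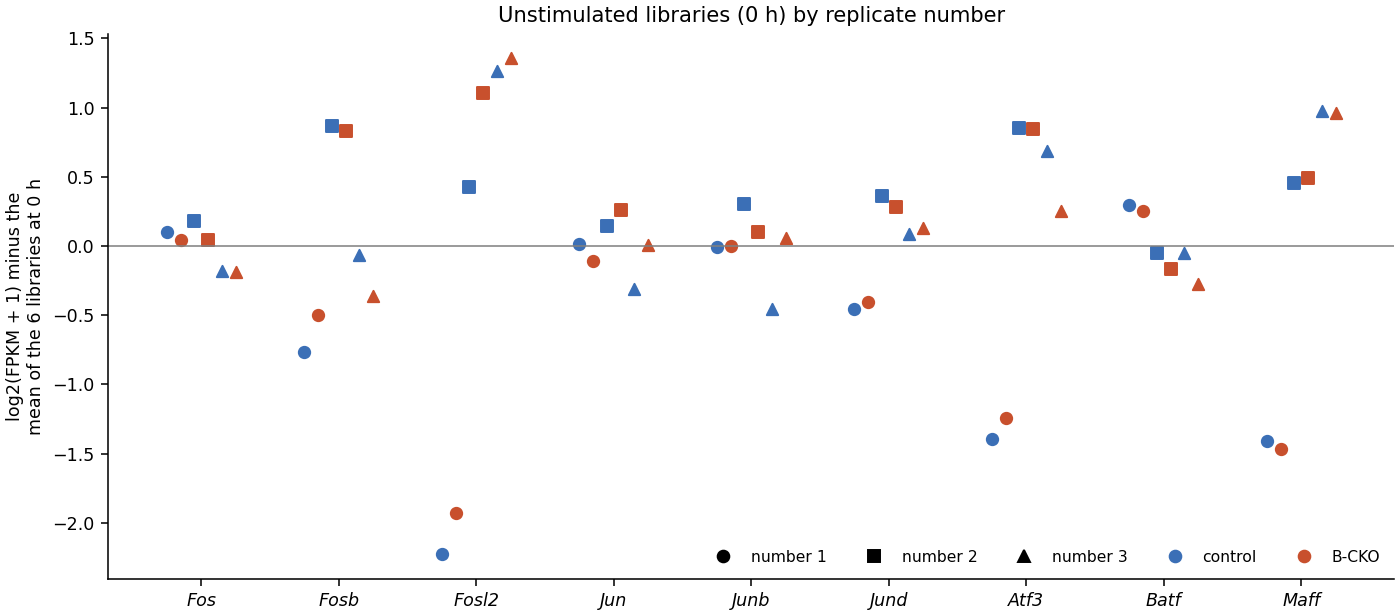
log2(FPKM + 1) of 9 members in the 6 libraries at 0 h, minus the member's mean of those libraries, with shape for replicate number and colour for genotype (Fosl1, near the floor, is left out). Circles (number 1) lie lowest for Fosb, Fosl2, Jund, Atf3 and Maff and highest for Batf, and the same number in the other genotype mostly lies close by, less so for number 2 of Fosl2 and number 3 of Atf3 and Junb.

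Other measures were set beside the number at 0 h. Heat shock genes (8) summed to 1292 and 1283 FPKM in number 1 (control and B-CKO), 1522 and 2001 in number 2, and 901 and 945 in number 3, and 5 of the 8 were called by number. *Irf4*, a partner of BATF, was at 118 and 119 FPKM in number 1 and at 254 to 266 in the others. T cell markers summed to 37.3 and 33.4 in number 1, 30.7 and 26.5 in number 2, and 25.8 and 24.6 in number 3, with 0 of 9 called by number. Erythroid markers summed to 16.0 and 30.2, 15.04 and 11.7, and 37.6 and 71.1, with 0 of 6 called. Of myeloid markers 1 of 8 was called by number, of NK cell markers 1 of 5 and of plasma cell markers 2 of 6. Plasma cell markers, *Irf4* among them, summed to 251 and 242.5 FPKM in number 1, 399 and 393 in number 2, and 421 and 420 in number 3. Of 26 other immediate early genes, 11 were called by number. *Egr1*, singled out after its values were seen, ran against *Fosl2* and *Maff*, at 412 and 239 FPKM in number 1, 154 and 137 in number 2 and 69.4 and 93.2 in number 3. *Nr4a3* of the same list, picked in the same way, ran with *Fosl2* and *Maff*. It was at 1.28 and 1.22 FPKM in number 1, 16.5 and 17.1 in number 2 and 45.5 and 35.3 in number 3. *Nr4a2*, *Dusp5*, *Klf4* and *Tnfaip3* were also lowest in number 1 in both genotypes, while *Egr2*, *Ier2*, *Ier5* and *Dusp2* were highest there. The part of these measures in the members' spread was not tested, and the labels do not say what the number stands for beyond the mouse.

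Genes around the family were counted by fixed lists, from 0 h to 24 h in control and then in B-CKO. Of 26 other immediate early genes, 23 fell and 2 rose in each genotype, with a median log2 difference of -3.24 and -3.18. *Klf2*, a quiescence factor, went from 838 ± 88.7 to 72.3 ± 4.87 FPKM in control (SD, n = 3; log2 difference -3.51, adjusted p = 5.17e-06), and *Klf6* from 224 ± 47.7 to 6.54 ± 0.507 (-4.88, adjusted p = 6.46e-06). *Egr3*, a zinc finger factor induced by antigen receptor signals, changed by -3.35 (adjusted p = 8.65e-06), and *Ppp1r15a*, which reverses the integrated stress response, by -4.04 (adjusted p = 8.68e-06). Of serum response factor and its cofactors, 5 of 6 fell in control and 4 of 6 in B-CKO. *Elk4*, a ternary complex factor, went from 31.5 ± 9.07 to 8.95 ± 0.286 FPKM in control (adjusted p = 0.000429), and the SRF coactivators *Mrtfa* and *Mrtfb* changed by -0.95 and -0.48 (adjusted p = 0.00153 and 0.0081), while *Srf* itself went from 41.9 ± 1.89 to 34.4 ± 0.889 (adjusted p = 0.0061, and 0.102 in B-CKO).

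MAP kinases and the kinases above them were more evenly split, with 13 of 24 tested lower and 6 higher in control and 14 of 25 lower and 6 higher in B-CKO. *Map3k3*, which encodes MEKK3, went from 44.5 ± 3.19 to 20.7 ± 0.464 FPKM in control (adjusted p = 4.41e-05), and *Map2k6*, whose product activates p38, from 7.98 ± 0.935 to 1.68 ± 0.201 (adjusted p = 5.42e-05). *Map3k8*, the kinase that couples LPS to ERK, went from 24.8 ± 2.94 to 9.66 ± 0.204 FPKM (adjusted p = 8.49e-05), and *Mapk14*, which encodes p38α, from 44.2 ± 2.00 to 26.3 ± 0.378 (adjusted p = 8.6e-05). Among 24 other bZIP genes, 9 fell and 7 rose in control (10 and 7 of 23 tested in B-CKO). *Cebpb* went from 57.5 ± 12.8 to 3.19 ± 0.208 FPKM (adjusted p = 1.1e-05), and *Atf4*, a factor of the integrated stress response, from 386 ± 37.5 to 169 ± 5.89 (adjusted p = 5.28e-05). *Ddit3*, a stress-induced partner of C/EBP proteins, went from 94.2 ± 28.7 to 8.62 ± 0.988 (adjusted p = 5.95e-05), and *Atf6*, a sensor of the unfolded protein response, rose from 17.2 ± 0.84 to 36.2 ± 2.70 (adjusted p = 7.66e-05).

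Of 7 partners and targets of BATF in B cells, 2 rose and 3 fell in control, and 2 rose and 4 fell in B-CKO. *Irf4* was at 214 ± 83.5 FPKM at 0 h and 64.1 ± 1.87 at 24 h (log2 difference -1.64, adjusted p = 0.00448), so it fell while *Batf* rose. *Ikzf3*, a lymphoid zinc finger factor, changed by -1.02 (adjusted p = 0.000138), and *Bcl6*, a transcriptional repressor that promotes germinal centre reactions, by -1.32 (adjusted p = 0.0092). *Prdm1*, the plasma cell regulator, rose from 2.74 ± 1.13 to 7.01 ± 1.45 (adjusted p = 0.0108). Of 9 genes that act on AP-1 proteins or bind beside them, 5 fell and 2 rose in each genotype. *Cops5*, also known as JAB1, a coactivator of c-JUN, rose from 20.2 ± 2.01 to 62.9 ± 1.01 FPKM (adjusted p = 1.68e-05). *Nfatc2* changed by -1.32 (adjusted p = 7.69e-05), while *Nfatc1*, whose product binds composite sites with AP-1, went from 112 ± 21.8 to 36.6 ± 0.58 (adjusted p = 0.000125). These lists were drawn up with earlier results of these data known, and their counts stand beside 26.7% of all genes higher and 30.7% lower in control, and 27.5% and 32.3% in B-CKO.

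The genes whose profile over the 18 libraries lay nearest to that of a member were found by the root mean square difference of centred log2(FPKM + 1), among genes averaging at least 1 FPKM. For *Fos* these were *Fosb* (0.61), *Plk2* (0.66) and *Klf4* (0.67), whose medians went from 186 and 114.5 FPKM at 0 h to 0.30 and 0.25 at 24 h for the latter pair. For *Junb* they were *Csrnp1* (0.18), *Gem* (0.18) and *Klf2* (0.20). *Csrnp1* had medians of 135, 10.4 and 18.6 FPKM at 0 h, 24 h and 48 h, with a partial return at 48 h. For *Batf* they were *Gins2* (0.20), *Mcm10* (0.22) and *Hells* (0.25), genes of DNA replication and chromatin, and *Gins2* had medians of 2.30, 45.6 and 40.1 FPKM. This measure describes likeness over libraries that differ mainly by time.

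By position in GRCm38.p6, *Fos* (chr12:85473890-85477274) and *Batf* (chr12:85686720-85709087) lie on the same chromosome, as do *Junb* (chr8:84976909-84978748) and *Jund* (chr8:70697739-70700616). The others are *Fosb* (chr7:19302696-19310118), *Fosl1* (chr19:5447698-5455938), *Fosl2* (chr5:32136472-32157840), *Jun* (chr4:95049036-95052222), *Atf3* (chr1:191170296-191183333) and *Maff* (chr15:79346621-79359078). *Fos* and *Batf*, both on chromosome 12, changed in opposite directions after LPS.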

How the data were processed

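RNA-seq was made of spleen B cells from 3 control and 3 B-CKO mice before LPS and 24 h and 48 h into it (18 libraries). The authors mapped reads to mm10 and deposited 1 table of FPKM. The submitters' processing notes name BWA, Bowtie2, RSEM and DESeq2, the study's methods name bowtie2 and Cufflinks with RSEM, and versions and annotation are not given in the sources used here. Counts were not used here, so limma 3.58.1 (R 4.3.3) was run on log2(FPKM + 1) in place of the study's count test, for genes above 0 in any compared library, with Benjamini-Hochberg adjustment and a threshold of 0.05. Each fit held the compared groups alone. A pseudocount of 1 understates changes of genes under a few FPKM. Of 16545 genes, 16512 had a RefSeq symbol and 33 were kept by ID.

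Named are all 10 members, members whose genotypes did not overlap, *Zbtb24*, the 3 nearest genes to *Fos*, *Junb* and *Batf*, and up to 4 genes of each pathway list (marker lists are given by sums) with the smallest adjusted p in control, 24 h against 0 h. Named outside this rule, after their values were seen, are the marker genes *Lck*, *Itgam* and *Hbb-bt*. The same holds for *Egr1* and the other immediate early genes set beside the replicate number at 0 h. Members and lists were chosen with earlier results of these data known. Same-numbered mice of both genotypes correlated over 0.1 in every pair at 0 h, so the number was used to pair the 0 h libraries. This pairing was drawn from the same values that were then tested, and the labels do not give it. Across times, libraries of a mouse share its number in the titles. Depth steps used a tolerance of 0.006 FPKM plus 1% of the value. The code of the tests was tried on simulated data. Noise there was drawn separately for each library, so the deviations that same-numbered mice shared at 0 h were not simulated. Python 3.11.15, numpy 2.4.6, pandas 2.3.3 and matplotlib 3.10.9 were used. Alternatives were another pseudocount (0.1), a mean of at least 1 FPKM, TPM, median ratio scaling, the study's fold cutoff, leaving out each library, and a replicate block. Results that need some further genes are not reported here.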

Additional observations from a re-analysis of the deposited data

How the results depend on the processing

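The number of members called was recomputed under each alternative. From 24 h to 48 h the study's fold cutoff with unadjusted p called 3 members in control in place of 6, and 3 in B-CKO in place of 8. At a mean of at least 1 FPKM, 8 members in place of 5 differed by replicate number at 0 h, beside 41.2% of genes tested in place of 9.01%, and leaving out any library left 0 to 0. Leaving out 1 library gave 7 to 9 members from 0 h to 24 h in each genotype, 6 to 7 in control and 7 to 9 in B-CKO from 24 h to 48 h, and 7 to 9 from 0 h to 48 h in each. In comparisons of genotype and in the interaction tests, every alternative counted here called 0 members. Fits without number 1 in both genotypes were left out of these counts. So were, for genotype at 24 h and 48 h, fits joining a replicate block to the 1 FPKM filter.

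With the replicate number as a block, 9 members were called from 0 h to 24 h in each genotype. Between genotypes at 0 h, where the number was used to pair the libraries, 0 were called. The same held with the 1 FPKM filter, an alternative chosen after seeing the data. The block changed no other count of members. Leaving out number 1 at both times was also chosen after seeing the data.

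For single members, 659 of 712 recomputed log2 differences kept their direction and side of the threshold. These were mostly differences between times. Those between genotypes and of the interaction were not recomputed for every member. Among the 712, *Fosl1*, near the floor, accounted for the 6 changes of sign. From 0 h to 24 h in B-CKO it was -0.0099 with TPM, -0.047 without number 1, and -0.037 to 0.089 leaving out 1 library. From 24 h to 48 h in control it was -0.091 to 0.023 leaving out 1 library. The cause was not tested. In FPKM the fragments behind a low value, such as those of *Fosl1*, are not known.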
